A study of Glycine max with 12 samples.

Results

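Soybean (Glycine max) roots colonized by Rhizophagus irregularis (Ri) were set against roots that carried Glomus aggregatum at its low level of colonization (Ga-L). The comparison rests on 6 of the 12 root RNA libraries of the study, 3 Ri and 3 Ga-L, which were taken as their labels group them. The other 6 libraries came from roots with G. aggregatum at a high level of colonization (Ga-H) and from roots without a fungus (NM). They entered the fits, where all groups share an estimate of spread, and they give the levels that the Ri and Ga-L values are read beside. All roots were plain soybean, with no allele, transgene or other agent named. The sources used here state neither plant age, cultivar and harvest time nor the measured extent of colonization. It is not stated whether replicate libraries are from separate plants, so each p-value rests on spread between libraries, which may be technical. The 6 libraries held between 10241425 and 10732861 expected counts each, and 36323 of 49551 genes had enough counts to be tested.

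Both fungi are arbuscular mycorrhizal partners. Such fungi grow into the root cortex, form branched arbuscules inside its cells, and pass phosphate and other minerals to the plant in return for sugars and lipids. Plants differ in how much they gain from different fungal partners, and by its title the study is concerned with root sugar metabolism and sugar export when that gain is positive. Setting Ri beside Ga-L compares root transcripts under different fungi, of which only G. aggregatum is labelled with a level of colonization. The species of fungus and the level of colonization therefore cannot be told apart in this comparison. The deposited tables give gene IDs of the Wm82.a2.v1 annotation, in which the first number is the chromosome, and 0 of them matched a row of the gene table at hand. Genes are therefore given by ID with no name or role, and the labelled tissue could not be checked against root markers.

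The library labelled Ri replicate 1 stood apart from its group. At least a 2-fold difference separated it from Ri replicate 2 in 21% of tested genes and from Ri replicate 3 in 14.7%, whereas Ri replicates 2 and 3 were that far apart in 7.3%. Its distance to the Ga-L libraries was 9.2%, 12.2% and 14.1% of genes for Ga-L replicates 1, 2 and 3, and to the Ga-H libraries it was 8.6% to 9.9%. Ri replicate 1 was thus nearer to every library of the G. aggregatum groups than to either of the other Ri libraries. Within Ga-L the distances were 3.7% to 8.4%, and the more distant member was replicate 1. The estimated biological coefficient of variation within a group was 32.9% for Ri and 19% for Ga-L, and 19.1% for Ri replicates 2 and 3 alone. The results on called genes are therefore given with and without Ri replicate 1.

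**Figure D1:**
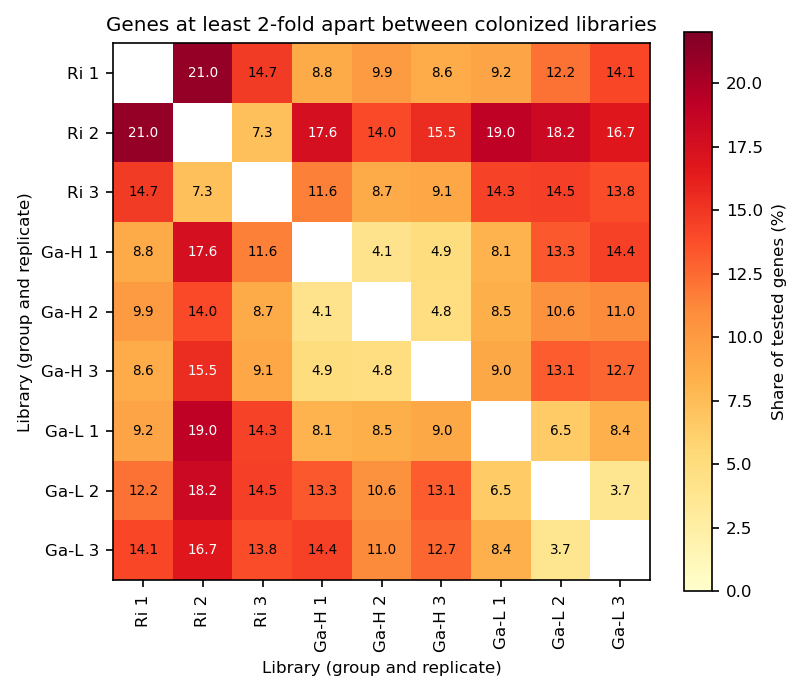
Share of the 36323 tested genes, in percent, that differ at least 2-fold in log2 CPM between each pair of colonized libraries, with libraries named by group and replicate on both axes and darker cells for larger shares. The cells that join Ri 1 to Ri 2 and Ri 3 hold 21 and 14.7, against 7.3 between Ri 2 and Ri 3 and 3.7 to 8.4 within Ga-L.

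With all libraries, 566 genes were higher and 981 lower in Ri than in Ga-L. Together these 1547 genes are 4.26% of the 36323 tested, with 1.56% higher and 2.7% lower. Genes were called at a threshold of 0.05 on the p-value of edgeR's quasi-likelihood test after Benjamini-Hochberg adjustment. Among the higher genes the median log2 fold change was 1.14, with quartiles of 0.8 and 1.75. Among the lower genes the median was -1.19, with quartiles of -0.86 and -1.69. A change of at least 2-fold was found for 343 of the higher genes (0.944% of those tested) and for 638 of the lower ones (1.76%). At least 8-fold differences were rarer, with 44 genes higher and 35 lower in Ri. In bulk roots, fewer cells of a type and less RNA per cell cannot be told apart, so a lower level may be either.

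The balance of higher and lower calls moved with how libraries were scaled. Genes higher in Ri made up 36.6% of the calls with TMM scaling, but 50.7% with library totals alone, which placed the median log2 fold change of all tested genes at 0.101 instead of 0.031. On the deposited FPKM scale, all 3 Ri libraries lay above all 3 Ga-L libraries in 5032 genes and below them in 3142. On TMM-scaled CPM, counts scaled to library size, the same counts were 3778 and 3965. Library totals were the exception among the scalings tried, since genes higher in Ri made up 33.4% of calls with RLE size factors and 36.4% with upper quartile scaling. Limma on the FPKM values also called fewer genes higher than lower, at 773 and 1040 with a pseudocount of 1 and 699 and 847 with 0.1. Among changes of at least 2-fold, library totals too gave fewer higher than lower genes, 465 and 557. Separation of the libraries, counted over the 36323 tested genes, was far more common than a call, which 4.26% of them received. With 3 libraries against 3 in random order, separation arises with a probability of 0.1, so by itself it shows no difference.

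When Ri replicate 1 was left out, 2385 genes were higher and 3104 lower in Ri replicates 2 and 3 than in Ga-L. These are 14.9% of 36925 genes tested, with 6.46% higher and 8.41% lower by the same edgeR test and threshold. Of the 1547 genes called with all libraries, 1531 were called here too, in the same direction in all 1531. They make up 99% of the first list and 27.9% of the second. The median log2 fold change was 1.06 among the higher and -1.26 among the lower genes, close to the medians with all libraries. These numbers in turn depended on other libraries, since 938 genes were higher and 1195 lower when Ri replicate 2 was left out as well, and 1409 and 1990 when Ga-L replicate 2 was. At least a 2-fold difference was seen in 1294 higher (3.5%) and 2069 lower genes (5.6%). At least 8-fold higher were 189 genes and at least 8-fold lower 192, or 187 and 181 when called genes with no count in one group (4 higher and 14 lower) were set to their bound at a floor of 3 counts per library. Here 43.5% of the calls were higher in Ri, but scaling by library totals made it 59.2%, and limma on the log2(FPKM + 1) scale 57%. The median log2 fold change of all tested genes was -0.005 with TMM, 0.094 with totals and 0.102 by limma on log2(FPKM + 0.1).

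**Figure D2:**
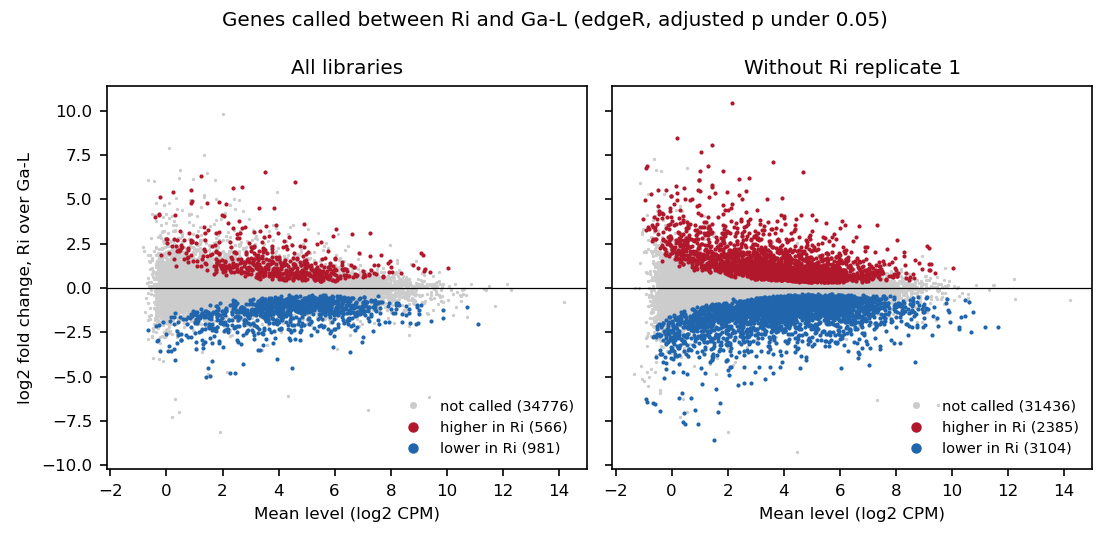
Log2 fold change of Ri over Ga-L for each tested gene (vertical axis) against its mean level in log2 CPM (horizontal axis), fitted with all libraries on the left and without Ri replicate 1 on the right. Red points are genes higher in Ri (566 and 2385), blue points genes lower in Ri (981 and 3104) and grey points genes not called.

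The share of tested genes that were called rose with their mean level, and the reason was not tested. Of 923 tested genes with a mean of 100 FPKM or more over all 12 libraries, 21 were higher and 53 lower in Ri with all libraries, so 8.02% were called. In the class of 10 to 100 FPKM 5.94% were called, in that of 1 to 10 FPKM 3.46%, and under 1 FPKM 2.01%. With Ri replicate 1 left out the same classes had 23.7%, 19.3%, 12.9% and 9.38% called, and in the most abundant class 57 genes were higher and 162 lower. The 981 lower genes took 3.13 ± 0.606% of all counts in Ri and 6.97 ± 0.217% in Ga-L (SD, n = 3 each). The 566 higher genes took 2.92 ± 0.629% in Ri and 1.25 ± 0.0907% in Ga-L. The genes called higher without Ri replicate 1 took 6.28%, 12.4% and 10.8% of counts in Ri replicates 1, 2 and 3, and 5.01% to 5.31% in Ga-L. The genes called lower took 14.8%, 7.69% and 8.79% in Ri replicates 1, 2 and 3, and 18.2% to 19.3% in Ga-L, so Ri replicate 1 again stood between. The lists were chosen on these libraries, so the shares describe their weight in the RNA and support nothing further.

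For most genes the data bound the difference rather than show one. With all libraries, the 95% interval of the log2 fold change lay within -1 and 1 for 22680 genes, 62.4% of those tested, and 202 of these were also called. In the fit without Ri replicate 1 the same held for 21162 genes, or 57.3%, of which 853 were called. A difference of 2-fold or more in either direction is outside the interval for these genes. For the remaining genes the interval does not exclude a 2-fold difference. The intervals rest on a spread shared by all groups. With all libraries its coefficient of variation was 22.4%, below the 32.9% within Ri. The intervals of that fit may thus be too narrow, and the 62.4% too high.

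Leaving out any other library of the compared groups had the opposite effect to leaving out Ri replicate 1. With Ri replicate 2 left out the test called 188 genes higher and 355 lower, and with Ri replicate 3 left out 86 and 157. Without Ga-L replicates 1, 2 and 3 the higher genes numbered 334, 34 and 80, and the lower genes 670, 190 and 333. The NM and Ga-H libraries enter the estimate of spread and the filter on low counts, and among them the lowest counts with 1 left out were 314 higher genes without Ga-H replicate 2 and 690 lower genes without Ga-H replicate 1. The higher genes also fell by over 1.5 times without Ga-H replicate 1 (330) and NM replicate 3 (320). With the 6 compared libraries alone in the fit, 2 genes passed as higher and 8 as lower, and without Ri replicate 1 these numbers were 1788 and 2404. The NM and Ga-H libraries, which the larger fit adds, had coefficients of variation of 17.5% and 16.9%. The spread shared by all groups was 22.4% with all libraries, below the 32.9% within Ri. The p-values of that fit may thus be too small for a contrast with Ri.

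**Figure D3:**
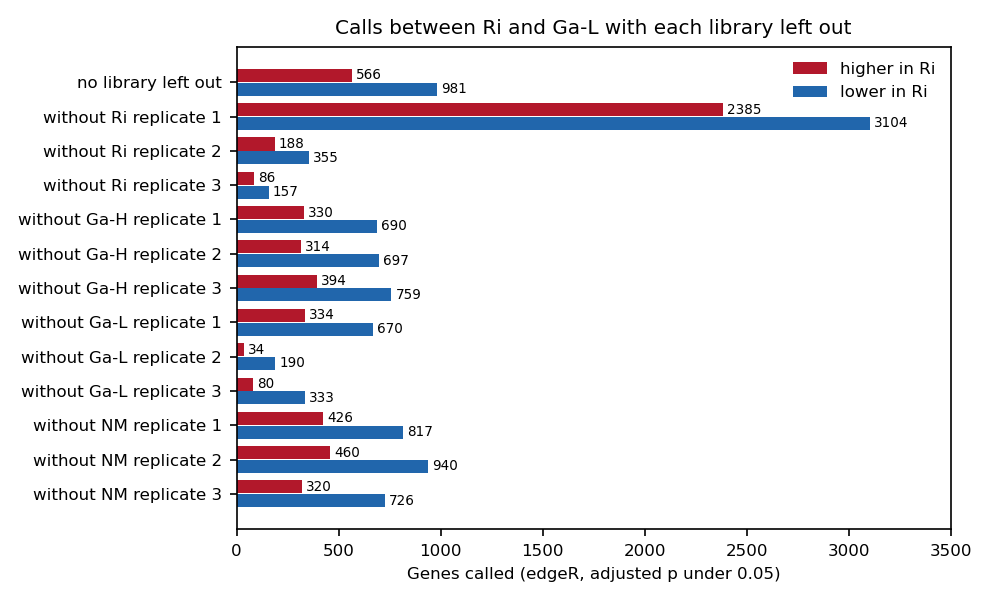
Number of genes called higher (red) and lower (blue) in Ri than in Ga-L by edgeR, with no library left out and with each of the 12 libraries left out in turn. Without Ri replicate 1 the counts are 2385 and 3104, and without any other library they lie between 34 and 460 for higher genes and between 157 and 940 for lower genes.

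Each library was also placed among genes that had been called without it. Of the 5489 genes called without Ri replicate 1, 1576 (28.7%) had a level in Ri replicate 1 nearer to the mean of the other Ri libraries than to the Ga-L mean. Its median difference from the Ga-L mean, in the direction of the call, was 0.28 on the log2 CPM scale, where Ri replicates 2 and 3 averaged 1.15. In 3000 of the genes (54.7%) it lay beyond all 3 Ga-L libraries in the called direction, and in 1517 (27.6%) it lay on the opposite side of the Ga-L mean. The Ga-L libraries helped to choose these genes, which by itself favours the called side. The same shares over all tested genes were not taken, so the values for Ri replicate 1 are a description. The other libraries behaved otherwise, although each was placed on a different and smaller list. Ri replicate 2 was nearer to its own group in 85.1% of 543 genes and Ri replicate 3 in 94.2% of 243. For Ga-L replicates 1, 2 and 3 the shares were 76.5% of 1004 genes, 96% of 224 and 91.5% of 413. In the direction of the call, the median difference of Ri replicate 1 was 0.16 for genes higher and 0.38 for genes lower in Ri, and whether these differ was not tested.

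**Figure D4:**
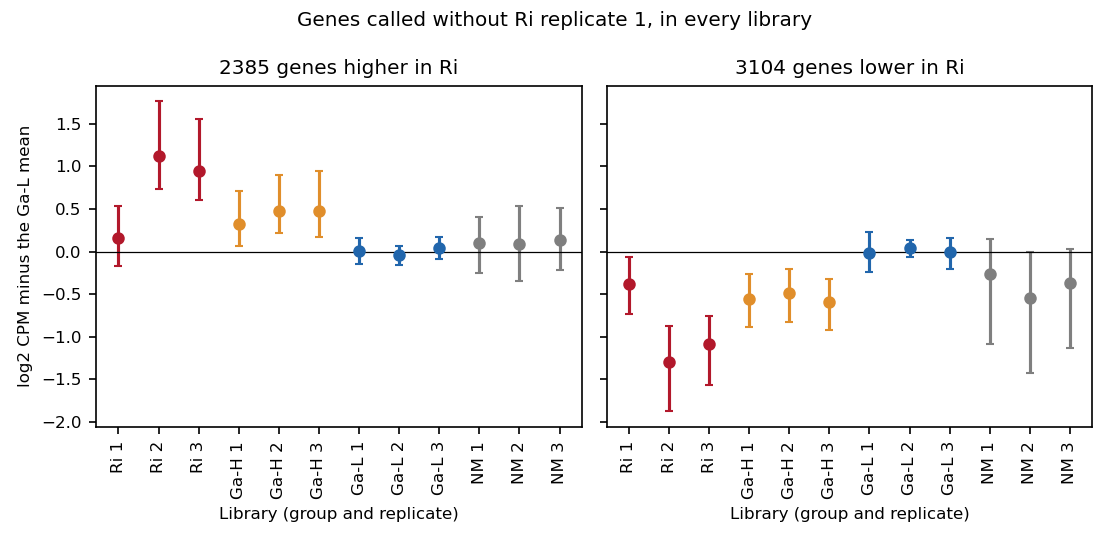
Difference in log2 CPM from the Ga-L mean in each of the 12 libraries, for the 2385 genes called higher (left) and the 3104 called lower (right) in Ri replicates 2 and 3, as the median over genes (points) with quartiles (bars). Ri 1 has medians of 0.16 and -0.38, between the other Ri libraries (0.95 and 1.12, and -1.08 and -1.3) and Ga-L.

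The Ga-H libraries took no part in the contrast, and for most of the called genes their mean lay between Ri and Ga-L. Among the 566 genes higher in Ri, the Ga-H mean lay between the compared groups in 451 (79.7%), above both in 95 and below both in 20. Over all tested genes with a higher mean in Ri the share in between was 35.7%. Among the 981 lower genes it was 885 (90.2%), against 39.6% of all tested genes with a lower mean in Ri. With Ri replicate 1 left out it was 84.5% of the higher genes, beside 42.5% of all tested genes of that sign, and 87% of the lower genes, beside 39%. By construction, genes chosen for a wide gap between Ri and Ga-L leave more room for another group to fall inside it, so these shares are a description. The median level of Ga-H above Ga-L was 0.74 on the log2 CPM scale for the higher genes, where Ri was 1.11 above. For the lower genes it was -0.68, where Ri was -1.19. The Ga-H mean was nearer to Ri than to Ga-L in 423 of the higher genes (74.7%) and in 659 of the lower ones (67.2%), beside 58% and 60% of all tested genes of the same sign. When Ri replicate 1 was left out the Ga-H mean was nearer to Ri in 39.5% for higher and 46.5% for lower genes, beside 46.4% and 48.2%. Which group Ga-H stood nearer to thus differed between the fits. The fits differ in their lists of genes as well as in that library, and the 2 were not separated.

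The uncolonized roots were spread more widely around the compared groups. For the 566 higher genes the NM mean lay between Ri and Ga-L in 381 (67.3%), below both in 121 (21.4%) and above both in 64 (11.3%). Over all tested genes with a higher mean in Ri these shares were 25.3%, 36.8% and 37.9%. For the 981 lower genes it lay between in 494 (50.4%), below both in 331 (33.7%) and above both in 156 (15.9%), beside 25.2%, 40.7% and 34.1% of all tested genes with a lower mean in Ri. Among the lower genes, those with NM above both stood highest in NM, and those with NM below both stood highest in Ga-L among these 3 groups. In the fit without Ri replicate 1 the NM mean lay between Ri and Ga-L for 54.8% of higher and 47.6% of lower genes, beside 30.2% and 24.5% of all tested genes of the same sign. It was below both groups in 989 of 2385 higher genes (41.5%) and above both in 848 of 3104 lower genes (27.3%). For these positions the shares over all tested genes of the same sign were 42.5% and 41.9%. As for Ga-H, genes chosen for a wide gap between Ri and Ga-L leave more room for NM inside it. The shares for NM are therefore a description too. The contrasts of Ri and of Ga-L with NM share the NM libraries, so only the levels are given here.

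Among called genes whose libraries did not overlap between Ri and Ga-L, those with the largest fold changes are given by library. Glyma.08G181100.Wm82.a2.v1, on chromosome 8, had 0.69, 10.54 and 8.61 FPKM in Ri replicates 1, 2 and 3, and 0, 0.11 and 0.11 FPKM in Ga-L replicates 1, 2 and 3. All Ri libraries lay above all Ga-L libraries, with Ri replicate 1 well below the other Ri libraries. Its level was 2.08 ± 0.339 FPKM in Ga-H and 0.127 ± 0.142 in NM (SD, n = 3 each), so it stood between the compared groups in Ga-H. With all libraries edgeR put the log2 fold change at 6.34 (SE 1.13) with an adjusted p of 0.0163, and without Ri replicate 1 at 6.86 (SE 0.56) with an adjusted p of 7.43e-05. The Ga-L libraries held about 2 counts in all, and the ratio of 100 per library total had a 95% Clopper-Pearson interval of 27.4 to 835, which covers counting error only. The call with all libraries was lost without Ri replicate 3 (edgeR adjusted p = 0.0599) and without either of Ga-L replicates 2 and 3 (0.075 and 0.0596), and over 22 alternatives the adjusted p ran from 4.1e-05 to 0.075. The compared groups fitted alone are not among these 22, since the gene was not tested there.

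Glyma.05G011200.Wm82.a2.v1, on chromosome 5, had 4.82, 3.7 and 103.43 FPKM in Ri replicates 1, 2 and 3, against 0.3, 0.15 and 1.49 FPKM in Ga-L replicates 1, 2 and 3. Ri replicate 3 alone carried most of the level. It was at 1.7 ± 1.16 FPKM in Ga-H and at 0.14 FPKM in each of the 3 NM libraries. In edgeR the log2 fold change with all libraries was 5.72 (SE 1.39), at an adjusted p of 0.0444, and without Ri replicate 3 it was 2.63 and not called (adjusted p = 0.13, edgeR). The call was lost in 16 of 22 alternatives, among them each library left out in turn except Ri replicates 1 and 2, and the adjusted p ran from 0.00754 to 0.189. DESeq2 gave no p-value for this gene with all libraries and is not among the 22. Without Ga-L replicate 3 the log2 fold change was 7.18 (adjusted p = 0.106, edgeR). The fit without Ri replicate 1 gave 6.21 (SE 1.22, adjusted p = 0.00754, edgeR), and when Ri replicate 3 was left out as well it was 2.4 (adjusted p = 0.116, edgeR).

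Among genes lower in Ri, the deepest fall was that of Glyma.13G204600.Wm82.a2.v1 on chromosome 13. It had 0.51 FPKM in Ri replicate 1 and was listed in neither of the other Ri libraries, against 3.36, 6.14 and 7.65 FPKM in Ga-L replicates 1, 2 and 3. The groups did not overlap, and the only Ri library with the gene was replicate 1. Ga-H was also low, at 0.723 ± 0.181 FPKM, and NM was at 6.5 ± 3.03 FPKM (SD, n = 3 each), so the Ga-L mean lay inside the spread of the uncolonized roots. In edgeR its log2 fold change was -5.02 (SE 0.78), at an adjusted p of 0.01. Between Ri replicates 2 and 3 and Ga-L it was at least 15.1-fold lower, with 3 counts per library as the floor (adjusted p = 0.000844, edgeR). The call with all libraries was lost when only the compared groups were fitted (adjusted p = 0.0892, edgeR) and in no other of 23 alternatives.

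Glyma.15G082200.Wm82.a2.v1, on chromosome 15, was likewise near 0 in Ri. Ri replicates 1, 2 and 3 had 0.4, 0 and 0.07 FPKM, and Ga-L replicates 1, 2 and 3 had 5.77, 5.77 and 3.27 FPKM. Every Ri library was below every Ga-L library by a wide margin. Ga-H held 0.43 ± 0.213 FPKM and NM 2.18 ± 0.791 FPKM (SD, n = 3 each), and the highest NM library, at 2.95 FPKM, lay under the lowest Ga-L library. In edgeR its log2 fold change was -4.98 (SE 0.66), at an adjusted p of 0.00666. Ri replicates 2 and 3 held 1 count, a ratio of Ga-L over Ri of 148 with a Clopper-Pearson interval of 26.4 to 5890 (adjusted p = 0.000199, edgeR). The call with all libraries was lost only when the compared groups were fitted alone (adjusted p = 0.0747, edgeR), among 23 alternatives.

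A further 4 genes are given from the fit without Ri replicate 1, passing over those already described. Glyma.05G065800.Wm82.a2.v1, on chromosome 5, had 24.81 and 5.51 FPKM in Ri replicates 2 and 3, and was listed in neither Ri replicate 1 nor any Ga-L or NM library. The Ga-H libraries held 9.46, 2.3 and 0.9 FPKM. It was at least 56.5-fold higher in Ri replicates 2 and 3 than in Ga-L, again with 3 counts per library as the floor (adjusted p = 0.0236, edgeR). The same bound over all 3 Ri libraries was 37.7-fold, where the gene was not called (adjusted p = 0.133, edgeR). Its call was lost without Ri replicate 2 (adjusted p = 0.137, edgeR) and without the low-count filter (adjusted p = 0.113, edgeR).

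Glyma.19G247200.Wm82.a2.v1, on chromosome 19, had 3.51 and 2 FPKM in Ri replicates 2 and 3 and was listed in neither Ri replicate 1 nor any Ga-L or NM library. Ga-H replicate 3 had 1.15 FPKM, and the other Ga-H libraries did not list it. Expression was thus seen in 3 of 12 libraries. The gene was at least 15-fold higher in Ri replicates 2 and 3 than in Ga-L, with an adjusted p of 0.04995 in edgeR that lies at the threshold. The call was lost in 9 of 21 alternatives, with adjusted p up to 0.266, including without any of the Ga-L libraries, Ri replicate 2, Ri replicate 3 or NM replicate 2. With all libraries it was not called (adjusted p = 0.187, edgeR).

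Glyma.10G025300.Wm82.a2.v1, on chromosome 10, was listed in neither Ri replicate 2 nor Ri replicate 3, against 1.08, 2.25 and 1.87 FPKM in Ga-L replicates 1, 2 and 3. Ri replicate 1 had 1.62 FPKM, inside the Ga-L range. NM was at 1.2 ± 0.116 FPKM and Ga-H at 0.333 ± 0.225 FPKM (SD, n = 3 each). The gene was at least 8.21-fold lower in Ri replicates 2 and 3 than in Ga-L (adjusted p = 0.00111, edgeR), and with all libraries the log2 fold change of -1.73 (SE 0.96) did not pass in edgeR (adjusted p = 0.343).

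Glyma.15G157400.Wm82.a2.v1, on chromosome 15, likewise was listed in neither Ri replicate 2 nor Ri replicate 3, against 2.15, 4.36 and 6.68 FPKM in Ga-L replicates 1, 2 and 3. Ri replicate 1 had 1.54 FPKM, below all Ga-L libraries. Ga-H was at 0.777 ± 0.186 FPKM and NM at 3.15 ± 1.29 FPKM (SD, n = 3 each). The gene was at least 7.64-fold lower in Ri replicates 2 and 3 than in Ga-L (adjusted p = 0.00182, edgeR). With all libraries the log2 fold change of -3.11 (SE 0.86) just missed the threshold in edgeR (adjusted p = 0.0661), and 6 of 23 alternatives called it. The calls of this gene and of Glyma.10G025300.Wm82.a2.v1 in the fit without Ri replicate 1 held in all 21 alternatives.

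**Figure D5:**
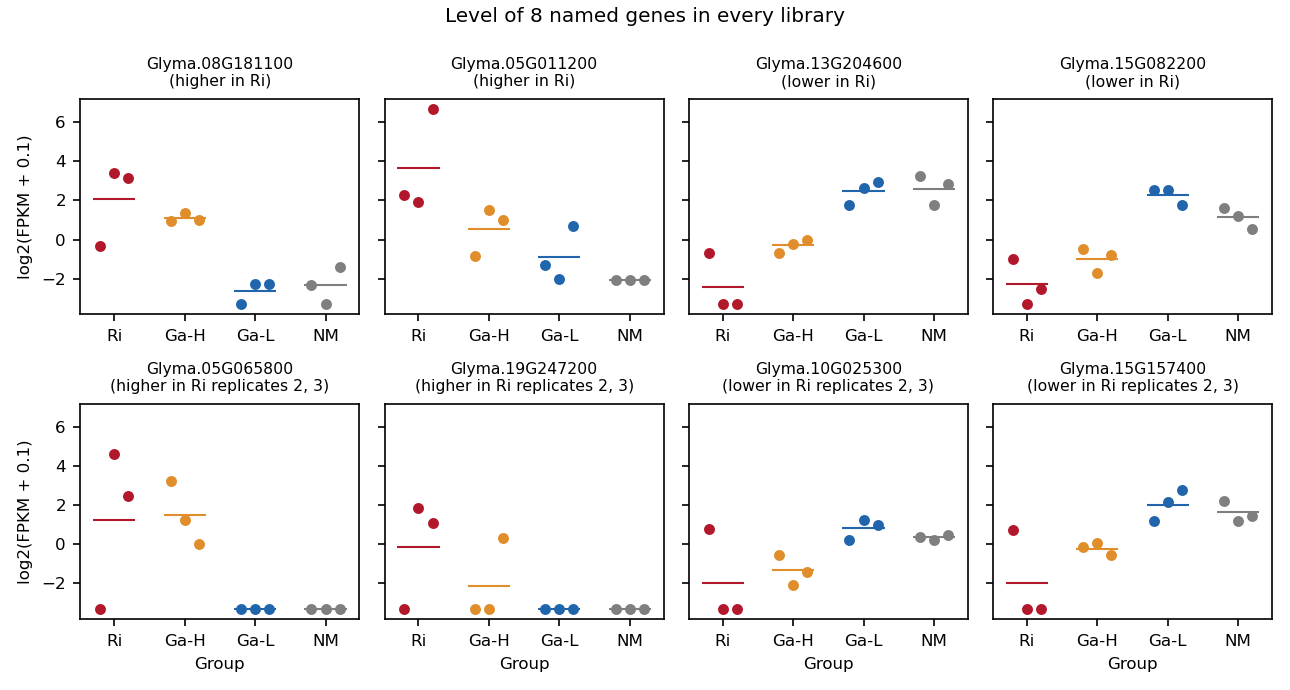
Level of the 8 named genes in every library on the log2(FPKM + 0.1) scale (vertical axis) by group (horizontal axis), with points for replicates 1, 2 and 3 from left to right and lines for the mean of the log values. The lower row shows the genes named from the fit without Ri replicate 1, of which 3 have the left Ri point at or inside the Ga-L levels (1.62 FPKM for Glyma.10G025300.Wm82.a2.v1, where Ga-L spans 1.08 to 2.25), while that of Glyma.15G157400.Wm82.a2.v1 lies below them at 1.54 FPKM.

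Some transcripts were listed in every library of one compared group and in none of the other, mostly at very low levels. With all libraries, 123 genes were listed in every Ri and no Ga-L library, of which 5 reached a mean of 1 FPKM, and 84 were listed in every Ga-L and no Ri library, of which 5 did. The median total over the 3 libraries was 5 counts in each list, under the floor of 3 counts per library, so that most of these genes give no fold change. In Ri replicates 2 and 3 and Ga-L the numbers were 314 and 258. Of these, 9 and 18 had enough counts to be tested and 4 and 14 were called, where 14.9% of all tested genes were. The highest mean among them was 21.5 FPKM for the Ri list and 5.72 FPKM for the Ga-L list. Of the lists with all libraries, 0 and 1 genes had enough counts to be tested, and 0 were called. All these lists were picked by the contrast that the test makes, so frequent calls among them follow from the choice. The number of genes listed per library was 43463 ± 410 in Ri and 43167 ± 195 in Ga-L (SD, n = 3 each), a difference that did not pass a 2-sided exact permutation test (p = 0.4, where 0.1 is the smallest that 3 against 3 can give). For Ri replicates 2 and 3 it was 43348 ± 506 in Ri (n = 2; exact p = 0.7).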

How the data were processed

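Total RNA from roots was sequenced in 12 libraries, 3 in each of 4 groups. Per the file headers, each library's deposited table holds an expected count, an FPKM value and a transcript length in bases (a value with no further unit) for each gene. Bowtie2, HISAT and RSEM are listed, with no versions or roles, per the submitters' processing notes; strand handling is not given in the sources used here. Expected counts divide reads among matching genes, so near-identical copies are uncertain. Genes that a table does not list were given 0. FPKM was used as deposited, scaled by the authors to library size and transcript length.

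Expected counts were rounded and tested in R 4.3.3 with edgeR 4.0.16: filterByExpr by group, TMM, quasi-likelihood test with robust dispersions, 1 mean per group over all 12 libraries (8 residual degrees of freedom) or the 11 without Ri replicate 1, contrast Ri minus Ga-L, Benjamini-Hochberg adjustment over all tested genes. Standard errors come from the fold change and F. Levels are log2 CPM with a prior count of 2. Floors (3 counts per library) and the Clopper-Pearson intervals of count ratios cover counting error only. The fits were tested on simulated counts, drawn with the same spread per gene in every group, so the wider spread within Ri was not simulated.

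Named genes are the 2 with the largest log2 fold changes in each direction and fit, among called genes whose libraries did not overlap in FPKM and whose higher mean reached 1 FPKM, where the fit without Ri replicate 1 passes over genes named from the other; 0 of 49551 IDs matched the 59048 rows of the RefSeq table (Glycine_max_v4.0), so no gene list was tested. The comparison, the groups of genes and the tests were chosen with earlier results of these data known. Alternatives were RLE, upper quartile or no scaling, no filter, DESeq2 1.42.0, limma 3.58.1 on log2(FPKM + 1) or log2(FPKM + 0.1), a replicate block, the compared groups alone, each library left out, and, chosen after seeing the data, voom with library quality weights.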

Additional observations from a re-analysis of the deposited data

How the results depend on the processing

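With all libraries, 566 genes were higher and 981 lower in Ri. The higher genes numbered 879 with library totals alone. DESeq2 gave 1329 higher and 1826 lower, and the compared groups fitted alone gave 2 and 8 (5544 genes had an unadjusted p under 0.05 there). Voom with library quality weights, chosen after seeing the data, gave 3839 and 4254, with the lowest weight, 0.272, on Ri replicate 1. With 1 library left out the counts ran from 34 to 2385 and from 157 to 3104. Without Ri replicate 1, library totals alone gave 3664 higher genes in place of 2385, and with another library left out the counts ran from 938 to 2463 and from 1195 to 3118. With Ri replicate 2 or 3 also gone, the lone Ri library is assumed to vary like the other groups. Apart from these, the replicate block below and single libraries left out, each setting kept both counts within 1.5 times.

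With the replicate number as a block, 411 genes were higher and 863 lower with all libraries, and 1535 and 2261 without Ri replicate 1. Deviations from the group mean correlated at 0.14, -0.03 and 0.14 between same-numbered Ri and Ga-L libraries, so the numbers are not taken to pair them.

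The median of Ga-H minus Ga-L on log2(FPKM + 1) was 0.63 for higher and -0.55 for lower genes, and -0.41 for lower genes without Ri replicate 1. With 1 library left out it ran from 0.44 to 1.08 and from -0.84 to -0.55, and without Ri replicate 1 from 0.41 to 0.7 and from -0.72 to -0.52. For NM minus Ga-L the ranges were 0.11 to 0.88 and -1.11 to -0.38, and without Ri replicate 1 they were 0 to 0.24 and -0.48 to -0.21. Ri replicate 1 among the genes called without it ran from 0.09 to 0.29 and from -0.6 to -0.31. The difference in genes listed ran from 175 to 533 with 1 library left out. For genes with at least 1 FPKM it was 208, and -28 without Ri replicate 1. The causes were not tested. Depth was alike in all libraries, and genes with few counts are bounded only by the floor.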

Other observations

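Called genes were spread over all 20 chromosomes. With all libraries the share of tested genes called ran from 3.28% on chromosome 12 to 5.27% on chromosome 16, beside 4.26% of all, and without Ri replicate 1 from 13.1% on chromosome 9 to 16.7% on chromosome 1, beside 14.9%. Chromosome 16 was at 14.5% without that library. Genes lower in Ri had a median length of 1701 bases, genes higher in Ri 1850, and all tested genes 1744. When Ri replicate 1 was left out these medians were 1668, 1796 and 1735 bases.

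IDs number genes along a chromosome, and neighbours by ID shared a call more often than tested genes at large. Of 976 genes lower in Ri with a next tested gene on the same chromosome, 65 (6.66%) were followed by another lower gene, where 2.7% of all genes were lower. For genes higher in Ri it was 20 of 565 (3.54%), where 1.57% were higher. Without Ri replicate 1 the shares were 15.3% beside 8.42% for lower genes and 10.1% beside 6.47% for higher genes. A lower gene was followed by a higher one in 1.02% of cases, where 1.57% of all genes were higher. Runs of 3 lower neighbours occurred 7 times with all libraries, on chromosomes 1, 5, 13, 15, 16 and 20, and without Ri replicate 1 the longest runs held 5 lower genes, on chromosomes 11, 12, 19 and 20. No test was made of these shares. Whether such neighbours are near-identical copies, among which expected counts divide reads, was not checked, so their calls may not be independent.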
